A study of Arabidopsis thaliana with 6 samples.

Results

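The regions described here are stretches of the *Arabidopsis thaliana* genome whose CHH methylation (H is A, C or T) differed from wild type in endosperm that inherited the *nrpd1* mutation from the mother and also in endosperm that inherited it from the father. A member is a pair of overlapping regions, 1 from each heterozygote's list of differentially methylated regions (DMRs), that share at least 1 bp. There were 480 such pairs. They took in 479 of the 2234 CHH DMRs between WT and mat nrpd1+/- and 480 of the 2056 listed for pat nrpd1+/-. Only 1805 of the mat nrpd1+/- regions and 1327 of the pat nrpd1+/- regions lay in sequence that passed the study's filters for every genotype. The whole lists thus overstate how many regions could have been in a pair. Across all 6 DMR lists of the series, in the CG and CHH contexts, 8950 regions were listed. Of the 100-bp bins of sequence that passed the study's filters for the genotypes compared, 0.945% lay in a CHH DMR of mat nrpd1+/- and 0.724% in one of pat nrpd1+/-. The members were chosen by these same values, and both lists were made against the same WT libraries, so the differences are given as a description and were not tested. Below, the sequence common to both regions of a pair is called the shared segment.

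DNA methylation was measured by bisulfite sequencing of endosperm dissected 7 days after pollination, in 6 libraries of 3 genotypes with 2 replicates each. For WT endosperm, both the L*er* mother and the Col-0 father were wild type for *NRPD1*. In mat nrpd1+/- endosperm the L*er* mother was homozygous for *nrpd1a-4*, a T-DNA allele from Col-0 that had been introgressed into L*er*. The Col-0 father was wild type. In pat nrpd1+/- endosperm the L*er* mother was wild type and the Col-0 father was homozygous for *nrpd1a-4*. Every genotype thus came from a cross of L*er* by Col-0, and each heterozygote kept functional *NRPD1* from the other parent. Per the paper, the L*er* mutant line still carried Col-0 introgressions, and within these mat nrpd1+/- endosperm was not hybrid. A replicate was endosperm pooled from many seeds of crosses between different individual parents. The lists hold 1 value for each region, from replicates that the authors pooled. Per the study's methods, a 300-bp window was used only with at least 3 cytosines in common and 6 reads per cytosine. Depth beyond that minimum, methylation levels and the spread between replicates are unknown for any single region, and no interval can be put on a difference. The lists hold no marker by which the tissue could be checked.

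*NRPD1* encodes the largest subunit of Pol IV (RNA polymerase IV), a plant enzyme that transcribes transposons and other repeats. Its transcripts are made double-stranded by RDR2, cut into small RNAs by DCL3 and loaded into ARGONAUTE proteins of the AGO4 group, which guide the methyltransferase DRM2 to matching DNA. This RNA-directed DNA methylation acts on cytosines in every context, but CHH sites depend on it most, since they have no symmetric partner from which methylation could be copied after replication. CMT2 methylates CHH sites at other targets, mostly inside long heterochromatic transposons, without Pol IV. Endosperm is the seed tissue that nourishes the embryo, and it inherits more copies of the maternal than of the paternal genome.

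In 323 pairs both heterozygotes had lower CHH methylation than WT, and in 128 both had higher. In the other 29 pairs the heterozygotes moved in opposite directions. Among the bins that passed the filters, 0.471% were lower and 0.474% higher in mat nrpd1+/-, and 0.396% were lower and 0.328% higher in pat nrpd1+/-. To show what such sequence looks like, the shared segments of 300 bp with the largest differences are printed, a pair of them from each group. Differences are given in percentage points of CHH methylation, heterozygote minus WT. The sequences are the plus strand of the RefSeq TAIR10.1 assembly, whose nuclear chromosomes are those of TAIR10. Capitals mark cytosines in CHH context on the printed strand (C) and opposite those on the other strand (G).
chr4:1595301-1595600, lower in both: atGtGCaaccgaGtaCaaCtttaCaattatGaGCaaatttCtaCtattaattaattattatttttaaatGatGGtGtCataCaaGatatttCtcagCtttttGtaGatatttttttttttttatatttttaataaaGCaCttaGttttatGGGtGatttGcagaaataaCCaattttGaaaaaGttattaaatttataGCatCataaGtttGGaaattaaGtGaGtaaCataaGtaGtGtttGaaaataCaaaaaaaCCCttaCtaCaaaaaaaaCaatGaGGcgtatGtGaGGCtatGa
chr5:13482801-13483100, lower in both: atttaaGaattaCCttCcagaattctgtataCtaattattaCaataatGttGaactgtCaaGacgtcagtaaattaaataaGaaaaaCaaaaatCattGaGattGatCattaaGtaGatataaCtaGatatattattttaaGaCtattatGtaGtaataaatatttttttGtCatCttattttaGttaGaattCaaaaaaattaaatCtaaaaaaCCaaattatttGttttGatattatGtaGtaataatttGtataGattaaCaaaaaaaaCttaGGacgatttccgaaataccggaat
chr2:6480401-6480700, higher in both: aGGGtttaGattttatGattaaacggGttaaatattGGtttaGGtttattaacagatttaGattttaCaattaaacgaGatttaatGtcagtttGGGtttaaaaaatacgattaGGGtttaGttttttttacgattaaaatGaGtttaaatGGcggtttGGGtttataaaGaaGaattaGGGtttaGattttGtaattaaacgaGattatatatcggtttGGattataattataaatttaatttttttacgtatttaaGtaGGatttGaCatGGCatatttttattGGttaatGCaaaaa
chr3:15026001-15026300, higher in both: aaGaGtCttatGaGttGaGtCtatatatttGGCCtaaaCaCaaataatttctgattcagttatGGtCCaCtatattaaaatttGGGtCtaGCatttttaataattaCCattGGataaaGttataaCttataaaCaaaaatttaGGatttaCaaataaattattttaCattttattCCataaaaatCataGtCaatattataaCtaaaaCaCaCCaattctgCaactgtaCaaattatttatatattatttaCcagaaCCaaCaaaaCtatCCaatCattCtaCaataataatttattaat
chr4:6167701-6168000, opposite: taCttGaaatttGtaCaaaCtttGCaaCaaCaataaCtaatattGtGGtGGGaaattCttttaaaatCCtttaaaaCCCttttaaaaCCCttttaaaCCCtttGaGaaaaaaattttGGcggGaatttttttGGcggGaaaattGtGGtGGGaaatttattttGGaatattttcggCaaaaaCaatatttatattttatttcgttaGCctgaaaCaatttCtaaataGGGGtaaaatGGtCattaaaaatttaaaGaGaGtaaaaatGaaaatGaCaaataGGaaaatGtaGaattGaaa
chr4:2151901-2152200, opposite: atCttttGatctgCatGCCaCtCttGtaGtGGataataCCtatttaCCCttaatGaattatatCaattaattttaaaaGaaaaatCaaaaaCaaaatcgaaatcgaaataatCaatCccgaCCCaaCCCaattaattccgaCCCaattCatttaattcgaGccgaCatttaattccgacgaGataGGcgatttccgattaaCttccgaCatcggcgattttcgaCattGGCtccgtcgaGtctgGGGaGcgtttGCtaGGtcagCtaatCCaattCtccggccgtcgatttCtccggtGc

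These segments were AT-rich and held between 44 and 68 CHH cytosines on the 2 strands together. The first segment, 1195 bp upstream of AT4G03570, has a GC content of 25%, with 66 CHH but 4 CG cytosines. The one on chromosome 5 lies 209 bp upstream of *PTM*, which encodes a chloroplast envelope-bound factor that relays plastid signals to the nucleus. In the first segment printed from the pairs higher in both, the CHH cytosines lie almost all on one strand, 46 on the strand opposite to the printed one and 4 on the printed one. The second holds 58 CHH cytosines and 0 CG cytosines in the reference sequence. The last segment stands apart from the others in sequence, with a GC content of 40.7%, 42 CG cytosines, and 70.7% of its 31-mers found elsewhere in the genome. By comparison, the median shared segment of all 480 pairs held 23.0 CHH, 3.0 CHG and 3.33 CG cytosines per 100 bp on both strands.

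The pairs lower in both heterozygotes had a median difference of -14.2 points in mat nrpd1+/- (quartiles -20.1 and -11.7) and of -15.2 points in pat nrpd1+/- (-21.0 and -11.7, n = 323). Over each whole list the median of the lower regions was -13.6 points in mat nrpd1+/- (n = 1118) and -13.3 points in pat nrpd1+/- (n = 1127). The pairs higher in both had larger medians, 16.4 points in mat nrpd1+/- (quartiles 12.4 and 25.8) and 19.1 points in pat nrpd1+/- (13.04 and 29.9, n = 128). The higher regions of the whole lists had medians of 15.1 points (n = 1116) and 16.1 points (n = 929). The medians of the losses thus lay within a few points of the threshold of 10 points at which the authors called a region. In 52 pairs both differences were under 12 points, in 112 both were at least 20 points, and in 44 both were at least 30 points. The members nearest the threshold had differences of -10.027 and 10.025 points in mat nrpd1+/- and of -10.024 and 10.182 points in pat nrpd1+/-.

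**Figure D1:**
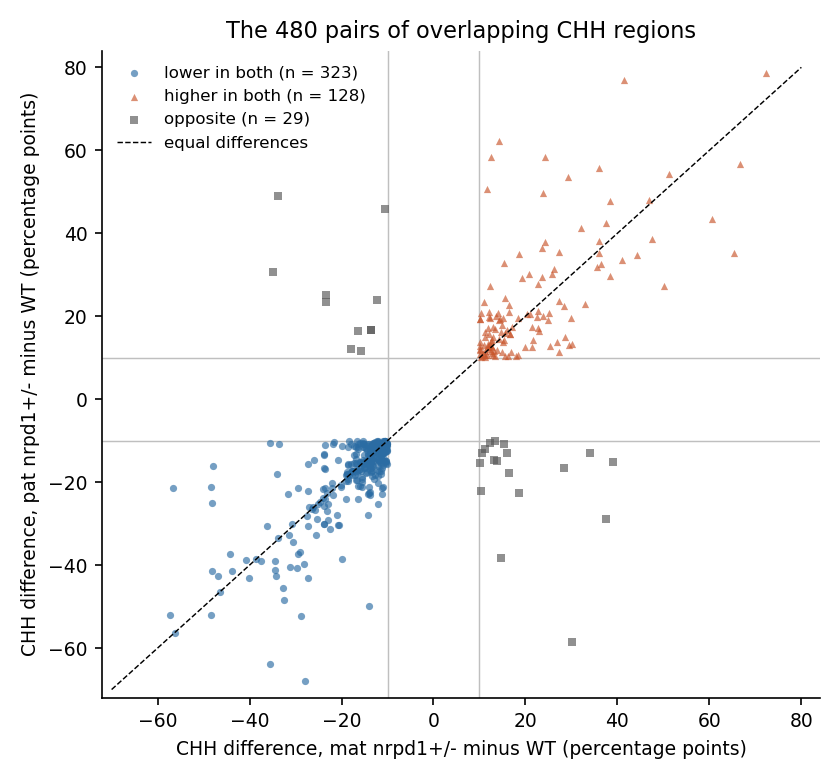
Each point is 1 of the 480 pairs, with the CHH difference of mat nrpd1+/- from WT on the horizontal axis and that of pat nrpd1+/- from WT on the vertical axis, both in percentage points. Grey lines mark the threshold of 10 points, the dashed line marks equal differences, and the 29 opposite pairs lie at the upper left and lower right.

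**Figure D2:**
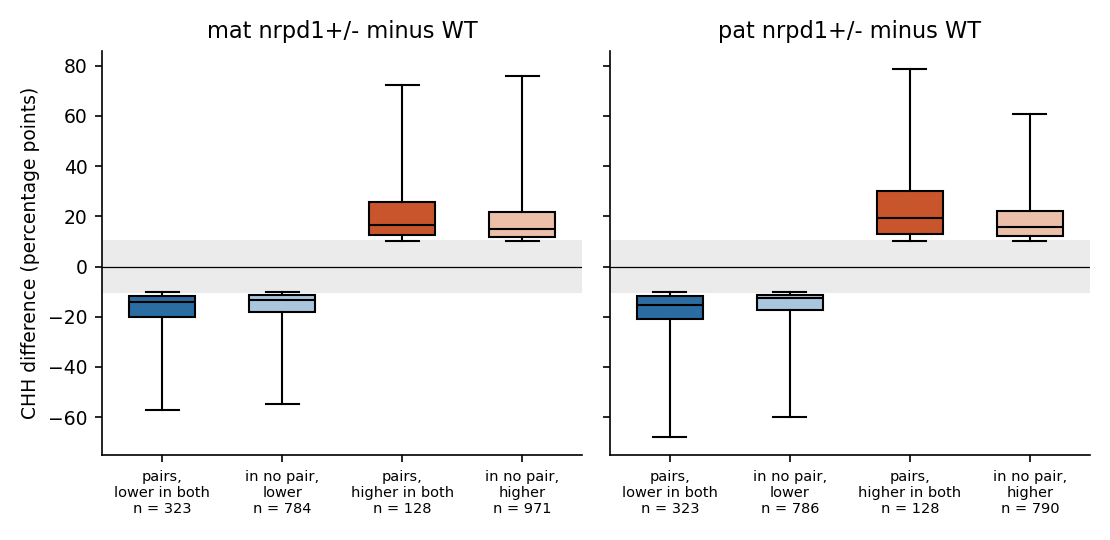
Boxes show the quartiles and median of the CHH differences of each heterozygote from WT, in percentage points, for pairs and for regions of the same list in no pair, and whiskers run from the lowest to the highest value. The grey band is the range within the threshold of 10 points, in which no region was listed.

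Regions of the same list that belonged to no pair had medians closer to the threshold. In mat nrpd1+/- these were -13.3 points for the 784 lower regions and 14.9 points for the 971 higher ones. In pat nrpd1+/- they were -12.7 points for 786 regions and 15.8 points for 790 regions. Of these regions in no pair, only 1327 in mat nrpd1+/- and 848 in pat nrpd1+/- passed the filters of every genotype. Medians for that subset were not computed. A member also had to pass the threshold in both lists, which favours larger differences, so nothing is read from the contrast of medians. The largest gains in pat nrpd1+/- were among the members, up to 78.6 points, against 60.6 points for its regions in no pair. In mat nrpd1+/- the largest gain, 75.7 points, was at a region in no pair, and the members reached 72.4 points.

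Within a pair the values of the heterozygotes were often close. They lay within 1 point of each other in 131 of the 480 pairs and within 5 points in 309. The median gap between them was 1.94 points in the pairs lower in both (n = 323) and 4.98 points in the pairs higher in both (n = 128). Since each value is a difference from the same WT reads, a pair's values are not independent of each other. Pat nrpd1+/- was farther from WT in 277 pairs, mat nrpd1+/- was farther in 195, and the values were identical to 3 decimals in 8.

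The regions of a pair had the same start and end in 241 pairs. By group these were 56.0% of the pairs lower in both, 44.5% of those higher in both and 10.3% of the opposite pairs. The region of mat nrpd1+/- contained that of pat nrpd1+/- in 103 pairs, was contained in it in 84, and overlapped it in part in 52. Shared segments ranged from 100 to 800 bp, and 271 of them had the 300 bp of a single window of the authors. Altogether they covered 161.9 kb. At the edge of the rule, 11 pairs shared only 100 bp. Among these, 5 were lower in both, 3 higher in both and 3 opposite, with a median absolute difference of 15.4 points in mat nrpd1+/- and 16.6 in pat nrpd1+/-. Just outside it, 14 regions of mat nrpd1+/- abutted a region of pat nrpd1+/- without overlap. Of these, 1 was lower in both, 4 were higher in both and 9 were opposite, with median absolute differences of 14.4 and 13.01 points.

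Among the pairs lower in both, the deepest common loss was at chr3:11201101-11201600, an intergenic stretch 5929 bp from *SDR4*, a gene for a short-chain dehydrogenase. The difference there was -56.3 points in each heterozygote. At chr2:3134401-3134600 the difference was -57.2 points in mat nrpd1+/- and -52.0 in pat nrpd1+/-. The segments printed above for this group followed, with -48.5 and -52.0 points on chromosome 4, and with -46.4 points in each heterozygote next to *PTM*. The remaining 4 of the 8 largest losses lay at chr3:10834601-10834900, chr2:2564401-2564900, chr2:5456701-5457000 and chr5:5970401-5970700, with differences between -40.1 and -48.2 points in mat nrpd1+/- and between -41.4 and -43.2 points in pat nrpd1+/-. One of these, on chromosome 2, covered the pseudogene AT2G06470, and 83.6% of its 31-mers occurred elsewhere in the genome. None of the 8 overlapped a protein-coding gene, and the nearest genes lay between 209 and 18241 bp away.

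Some losses were much deeper in one heterozygote than in the other. The lowest value of any member, -67.9 points, was in pat nrpd1+/- at chr3:1341901-1342200, 254 bp upstream of *ZDS*, which encodes the carotenoid enzyme zeta-carotene desaturase. In mat nrpd1+/- the same segment differed by -27.9 points, and the authors' direct comparison listed mat nrpd1+/- as 39.96 points above pat nrpd1+/- there. At chr1:15920801-15921100 the values were -14.0 points in mat nrpd1+/- and -49.8 in pat nrpd1+/-. Both segments are singled out here after their values were seen.

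The pairs higher in both heterozygotes reached larger values than the losses. The largest was at chr1:13659801-13660200, an intergenic stretch 9224 bp from AT1G36310, with 72.4 points in mat nrpd1+/- and 78.6 in pat nrpd1+/-. Next came chr2:7148001-7148500, 19 bp upstream of AT2G16490, with 66.7 and 56.6 points. Methylation at chr5:17479501-17480000 was 51.3 points above WT in mat nrpd1+/- and 54.3 points above it in pat nrpd1+/-. The gene nearest to it, *LURE1.3* at 1107 bp, belongs to a family of secreted peptides that attract pollen tubes to the ovule. At chr3:15430301-15430800 the gains were 46.9 and 47.9 points. This segment touched a coding exon of AT3G43540, but the gene starts at position 15430660, so most of the segment lay upstream of it. A segment 3022 bp from *BIP1*, which encodes a chaperone of the endoplasmic reticulum, gained 60.5 points in mat nrpd1+/- and 43.4 in pat nrpd1+/-. At chr1:16420101-16420500 the gains differed most among these 8, with 41.5 points in mat nrpd1+/- and 77.0 in pat nrpd1+/-. The segments printed for this group completed the 8, with 47.5 and 38.5 points on chromosome 2 and with 38.5 and 47.7 points on chromosome 3. All 8 were above WT by at least 38.5 points in both heterozygotes.

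Gains could also be lopsided. A segment at chr5:26880301-26880600 lay 365 bp from *CKA1*, a catalytic subunit of casein kinase, and gained 12.5 points in mat nrpd1+/- but 58.3 points in pat nrpd1+/-. At chr4:3662301-3662600 the gains were 14.2 points in mat nrpd1+/- and 62.1 in pat nrpd1+/-. These segments were also picked after their values were seen.

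The 29 opposite pairs divided into 11 with lower methylation in mat nrpd1+/- and higher methylation in pat nrpd1+/-, and 18 with the reverse. In the first set the medians were -16.4 points in mat nrpd1+/- and 23.5 in pat nrpd1+/-. In the second they were 14.9 points in mat nrpd1+/- and -15.0 in pat nrpd1+/-. The widest contrast was at chr5:14648101-14648500, 2412 bp from AT5G37070, where mat nrpd1+/- differed by 30.2 points and pat nrpd1+/- by -58.6 points. The region of mat nrpd1+/- there was longer, chr5:14647501-14648500, so its value is not for the shared segment alone. At chr4:6167701-6168000, printed above and 1599 bp upstream of *LCR13*, a gene for a small cysteine-rich peptide, mat nrpd1+/- differed by -33.9 points and pat nrpd1+/- by 49.0 points. The other printed segment had values of -34.8 points in mat nrpd1+/- and 30.6 in pat nrpd1+/-.

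A further 7 of the 10 opposite pairs with the largest smaller difference were spread over all 5 chromosomes. At chr4:6505101-6505400 mat nrpd1+/- was 37.6 points above WT and pat nrpd1+/- differed by -28.9 points. The region of mat nrpd1+/- there was 1000 bp long and belonged to another pair as well, at chr4:6504401-6504800, where pat nrpd1+/- was 42.6 points above WT. It was the only region of its list in more than 1 pair. Mat nrpd1+/- was lower and pat nrpd1+/- higher at chr2:6207301-6207800 (-23.4 and 25.2 points), chr2:12556601-12557000 (-23.4 and 23.5 points) and chr5:15001301-15001400 (-16.4 and 16.6 points). The direction was reversed at chr1:11617901-11618200 (18.5 and -22.5 points), chr2:9314801-9315100 (28.3 and -16.5 points) and chr3:15791201-15791500 (16.5 and -17.7 points). The first of these last segments lay 481 bp from *RCD1*, whose product integrates hormone and stress responses.

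The other 19 opposite pairs had a smaller difference of between 10.025 and 15.2 points in one of the heterozygotes. A segment over a coding exon of *ENODL1*, an early nodulin-like gene, was 39.1 points above WT in mat nrpd1+/- and differed by -15.2 points in pat nrpd1+/-. A segment 43 bp upstream of *ADA2B*, a co-activator found in histone acetyltransferase complexes, had values of 34.0 and -13.0 points. Downstream of *NRT2:1*, a gene for a high-affinity nitrate transporter, they were 13.2 and -14.6 points. At 21271 bp from *CHR38*, also known as *CLSY1*, a chromatin remodeller that works with Pol IV, mat nrpd1+/- differed by -10.6 points and pat nrpd1+/- by 45.8 points. Further genes nearest to opposite pairs included *ARF8*, *MLO9*, *SON1* and AT2G06040.

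The longest shared segment, 800 bp at chr3:11245101-11245900 and 849 bp upstream of AT3G29300, had values near the threshold, -10.5 points in mat nrpd1+/- and -15.3 in pat nrpd1+/-. Segments of 600 bp at chr3:7981201-7981800 and chr4:5628101-5628700 differed by -25.1 and -23.5 points in mat nrpd1+/- and by -25.4 and -21.5 points in pat nrpd1+/-. Several segments of 500 bp followed, among them the one with the deepest common loss on chromosome 3 and the one upstream of AT2G16490 on chromosome 2. The 8 pairs with identical values all lost methylation and had identical coordinates. Besides the segments with -56.3 and -46.4 points named above, they included a coding exon of *4CL8*, named for its likeness to ligases of phenylpropanoid synthesis, with -38.6 points in each heterozygote. A further pair covered AT1G36070 with -26.5 points in each. The other 4 lay between -18.4 and -10.5 points.

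Each shared segment was assigned to the first class that applied, in the order coding exon, other exon, intron, non-coding RNA gene, pseudogene, and within 1 kb upstream of a protein-coding gene. An overlap of 1 bp was enough, so a segment named with a coding exon can lie mostly outside it. By this order 15.2% of the 480 segments touched a coding exon (exact 95% interval 12.1% to 18.7%), 7.92% an exon outside the coding sequence, and 1.88% lay in introns. Another 12.3% covered a pseudogene, 17.9% lay within 1 kb upstream of a gene, and 41.7% were in other intergenic sequence. In the whole mat nrpd1+/- list, coding exons made up 15.3%, pseudogenes 16.4%, the kilobase upstream 15.1% and other intergenic sequence 37.7%. In the whole pat nrpd1+/- list these shares were 20.2%, 12.2%, 16.6% and 33.2%. Among 100-bp bins that passed the filters in all 3 genotypes, 40.7% were in coding exons and 19.7% in other intergenic sequence, although a bin is shorter than most segments and so touches fewer features. The intervals count regions only and say nothing of replicates.

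**Figure D3:**
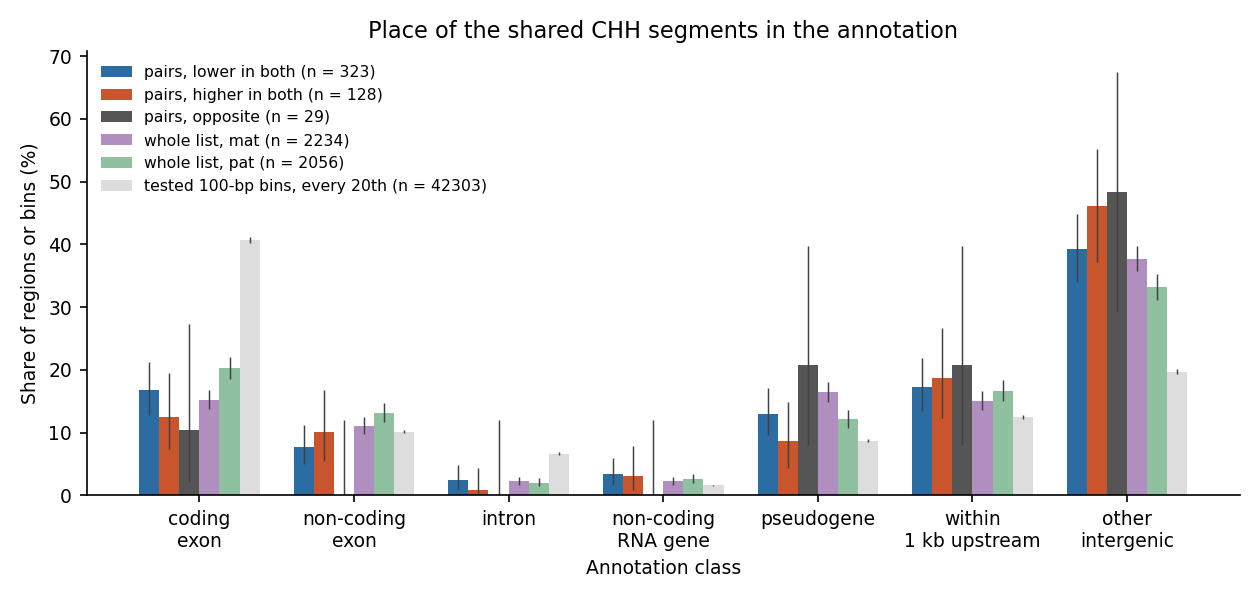
Bars give the share of shared segments of each group, of regions of each whole list and of a sample of 100-bp bins that passed the filters, in percent, in each class of the annotation, with exact 95% intervals as lines. Other intergenic sequence was the largest class of each group, at 39.3% of the pairs lower in both, 46.1% of those higher in both and 48.3% of the opposite pairs.

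Overlap with a protein-coding gene of any kind was found for 25% of the segments, against 28.6% of the regions of the whole mat nrpd1+/- list and 35.4% of those of the pat nrpd1+/- list. The filters of all 3 genotypes were passed at every member. Among regions in no pair that also did so the share was 26.2% in mat nrpd1+/- and 31.2% in pat nrpd1+/-. Genes were covered by 26.9% of the pairs lower in both, 23.4% of those higher in both and 10.3% of the opposite pairs. With 3 of 29, the interval of the last share ran from 2.19% to 27.4%. The median distance to the nearest protein-coding gene was 703 bp over all pairs, 693 bp for those lower in both, 618 bp for those higher in both and 1599 bp for the opposite ones. It was 778 bp over the mat nrpd1+/- list and 388 bp over the pat nrpd1+/- list. Outside genes, 55.8% of the members lay on the upstream side of the nearest gene, against 59.2% of the bins.

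The sequence of the members resembled that of the lists they came from. Median GC content was 29.2% in the shared segments and 30.5% in each whole list, against 36.0% in the bins that passed the filters. RefSeq's repeat masking covered a median of 38.3% of a segment, against 36.0% and 35.8% in the lists and 17.0% in the bins. In 7.29% of the pairs at least 50% of the 31-mers occurred elsewhere in the genome. This share was 9.71% in the mat nrpd1+/- list, 6.86% in the pat nrpd1+/- list and 5.92% in the bins. In 49.0% of the pairs none did, against 48.9% of the mat nrpd1+/- list and 55.01% of the pat nrpd1+/- list. Of the bins 82.2% had none, but a bin is shorter than most segments and so holds fewer 31-mers. The opposite pairs had a median of 6.50% multicopy 31-mers (95% interval 0% to 18.3%), against 0% for the pairs lower in both and 1.0% for those higher in both. Among the CHH cytosines of the members, CAA made up 18.8%, CTT 16.0% and CAT 14.9%, and in the bins these sites made up 18.2%, 16.9% and 14.3%. Transposon annotation was not used here.

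Some members resembled each other. By alignment over at least 200 bp at 80% identity or more, 16 members fell into 7 families. Similar sequence did not always go with a similar change. A member lower in both (-10.1 points in mat nrpd1+/- and -11.4 in pat nrpd1+/-) shared 88.7% identity over 300 bp with a member higher in both (35.5 and 31.8 points). In one family of 3, an opposite member (-12.3 and 24.0 points) was linked to a member with differences of -40.1 and -43.2 points and to a member with differences of -11.2 and -11.3 points. Of the 9 links between similar members, 6 joined pairs of the same group.

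Members were found on all 5 chromosomes, at 5.67 pairs per Mb over 84.6 Mb of sequence that passed the filters in all 3 genotypes. The density ranged from 5.0 per Mb on chromosome 3, with 101 pairs, to 6.65 per Mb on chromosome 2, with 85 pairs. On chromosome 1 only 14.2 of 30.4 Mb passed, and it held 76 pairs. Along the chromosomes the members were denser where genes were sparse, as were the lists they came from. Within 100 kb centred on the segment, protein-coding genes covered under 20% of the sequence for 23.8% of the pairs, 27.8% of the whole mat nrpd1+/- list and 21.9% of the whole pat nrpd1+/- list, against 11.5% of the 100-bp bins. Densities were computed for 1-Mb bins with more than 0.5 Mb passed, which leaves out 5 of the bins with under 20% of their sequence in genes. In the bins kept with under 20% of their sequence in protein-coding genes there were 10.4 pairs per Mb passed, and in bins with 60% or more there were 3.18. Among these bins the densest, chr3:12000001-13000000, had 15 pairs, 9 lower and 6 higher in both, and 4.35% of it was covered by genes. Of the bins counted, those poorest in genes held 51 pairs lower in both, 24 higher in both and 6 opposite, and the richest held 112, 35 and 5. No test was made of these counts, since neighbouring regions are not independent.

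**Figure D4:**
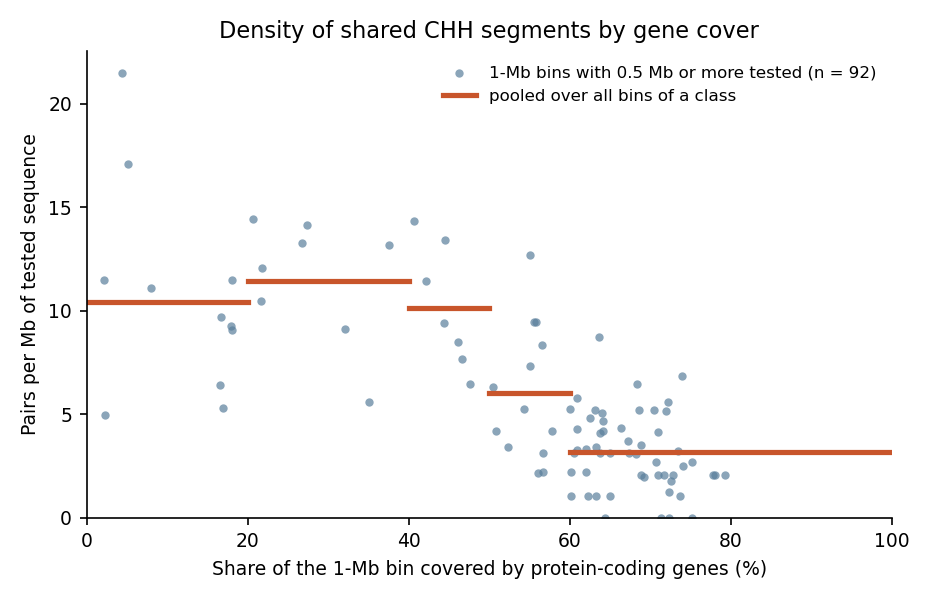
Each point is a 1-Mb bin with at least 0.5 Mb of sequence that passed the filters (n = 92), with the share of the bin covered by protein-coding genes in percent on the horizontal axis and the pairs per Mb passed on the vertical axis. Bars give the density over all bins of a class, which was 10.4 to 11.4 per Mb below 40% gene cover, 10.14 from 40% to 50%, 6.03 from 50% to 60% and 3.18 above.

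Members were looked for at the genes of 2 lists, one of the DNA methylation machinery and one of imprinted or endosperm genes. None of the 27 genes of the machinery list had a member within 1 kb, and 21 of them had at least 50% of their length in sequence that passed all filters. *NRPD1* itself, with *NRPE1*, *CMT3*, *ROS1*, *DME* and *DDM1*, had 0% and could not have held a member. Of 20 genes matched in the second list, 15 had at least 50% of their length in sequence that passed all filters. *PHE1*, *PHE2*, *VIM5*, *YUC10* and *MEA* had 0%. Of all 27444 protein-coding genes of the annotation, whether or not they passed the filters, 354 had a member, or 1.29%. In the second list 1 of the 20 did. That gene was *AGL62*, which encodes a MADS-domain factor that holds off endosperm cellularization. Its member, chr5:24305201-24305600, touched an exon outside the coding sequence and differed by -13.0 points in mat nrpd1+/- and by -11.4 points in pat nrpd1+/-. Near but outside 1 kb, a segment 3296 bp from *SUVH9*, whose product helps bring Pol V to methylated DNA, differed by -40.7 and -38.7 points. A segment 3889 bp from *AGL36*, a maternally expressed MADS-box gene of the endosperm, differed by -23.8 and -13.5 points.

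The following genes were picked for their known roles after their values were seen. A segment in an intron of *AG* (AGAMOUS), the homeotic gene of stamens and carpels, differed by -18.8 points in mat nrpd1+/- and -18.1 in pat nrpd1+/-. Coding exons with lower methylation included those of *HRGP1*, a hydroxyproline-rich cell wall protein (-33.8 and -33.5 points), *WRKY70*, a transcription factor of defence (-16.3 and -11.5 points), and *VND1*, which promotes xylem vessel identity (-12.4 and -12.3 points). Chromatin genes among them were *ATX1*, a histone H3 lysine methyltransferase (-11.7 and -11.3 points), and *MBD6*, a methyl-CpG-binding domain protein (-11.4 and -12.0 points). Coding exons with higher methylation included those of *LOX2*, a lipoxygenase of jasmonate synthesis (21.4 and 12.6 points), *ANX2*, a receptor kinase of the pollen tube (23.8 and 20.1 points), and *GGPS1*, which makes precursors of carotenoids and chlorophyll (29.9 and 19.6 points).

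In the kilobase upstream of genes, the segment at *MBD13*, another methyl-CpG-binding domain gene, gained 36.1 points in mat nrpd1+/- and 35.2 in pat nrpd1+/-. The promoter segment of *KNU*, a repressor that ends floral stem cell activity, was 21.5 and 14.3 points above WT. That of *SPCH*, which starts the stomatal lineage, differed by -14.2 and -15.5 points. *HIS1-3*, a gene for a stress-inducible linker histone, had a member on each side. The upstream one differed by -20.0 points in mat nrpd1+/- and -38.6 in pat nrpd1+/-, and the downstream one, which lies over *VND1*, was the one given above. Upstream of *DMR6*, a gene that limits salicylic acid, the gains were 12.4 and 19.5 points. Expression of these genes was not analysed here.

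The heterozygotes were also compared with each other by the authors, without WT, and a CHH DMR of that comparison (mat nrpd1+/- minus pat nrpd1+/-) overlapped 79 of the 480 pairs, or 16.5% (exact 95% interval 13.3% to 20.1%). Over all bins that passed the filters for those genotypes the list covered 0.933%, but the members were chosen on the same libraries and nothing is read from that contrast. The direct list took in 10.2% of the pairs lower in both, 21.9% of those higher in both and 62.1% of the opposite ones. In the whole lists, 28.6% of the mat nrpd1+/- regions and 24.5% of the pat nrpd1+/- regions overlapped it. Among regions in no pair that passed the filters of all 3 genotypes, as every member did, the shares were 41.7% and 49.3%. Membership in a pair was itself set by values of the same libraries, so nothing is read from these contrasts either. For 29 opposite pairs, whose values lie at least 20 points apart by construction, 11 were absent from the direct list. These included the widest contrasts, at chr5:14648101-14648500 and chr4:6167701-6168000. Whether the windows there had too few cytosines covered in both heterozygotes is not in the lists.

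Where a direct region was present, its value could be set beside the difference of the pair's own values. They were equal within 0.01 points in 13 pairs, within 5 points in 25 and more than 10 points apart in 45. The signs were the same in 62 of the 79 pairs and opposite in 17. Direct regions need not have the pair's coordinates, and each comparison used the cytosines covered in its own genotypes. At chr2:9314801-9315100, an opposite pair 103 bp upstream of AT2G21850, the direct value was 44.8 points, equal to the difference of 28.3 and -16.5 points. At the coding exon of *ENODL1* it was 48.3 points, against 54.3 from the pair's values. At chr2:3134401-3134600 the pair's values differed by -5.25 points, yet the direct list gave 37.1 points. Upstream of AT2G16490 the direct value was 20.1 points and the difference of the pair's values 10.135 points.

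**Figure D5:**
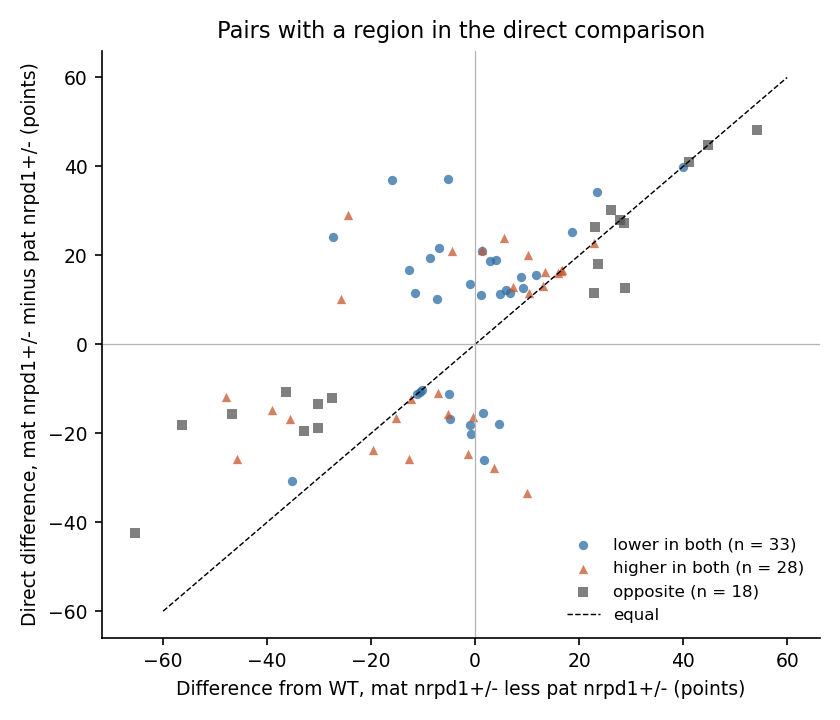
Each point is 1 of the 79 pairs that overlap a region of the direct comparison, with the difference between the heterozygotes' values against WT on the horizontal axis and the direct value on the vertical axis, both in percentage points. On the dashed line both are equal, as they are within 0.01 points for 13 pairs, and 45 pairs lie more than 10 points from it.

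Few members were also listed for a change in CG methylation. A CG DMR of either heterozygote, called at 30 points, overlapped 7 of the 480 pairs, or 1.46% (exact 95% interval 0.588% to 2.98%). The CG lists covered 0.232% of bins in mat nrpd1+/- and 0.238% in pat nrpd1+/-, and 1.97% and 1.85% of the regions of the whole CHH lists overlapped a CG DMR. Of the 128 pairs higher in both 0 did, with an exact upper limit of 2.84%. A single pair, chr2:6348501-6348800, overlapped a CG DMR in both lists, with CG differences of -48.3 points in mat nrpd1+/- and -35.7 in pat nrpd1+/- and CHH differences of -10.7 and -10.2 points. It lies 2488 bp from AT2G14765. A further 4 pairs lower in both overlapped a CG loss in pat nrpd1+/-, of -35.9 points near *PETC*, -37.2 points near *CRY1*, -38.4 points near AT3G45390 and -50.0 points near AT4G01890. At chr5:11638901-11639200 CG methylation differed by -31.4 points in mat nrpd1+/-. The remaining pair was opposite, at chr2:4339101-4339400, with CHH differences of 10.3 points in mat nrpd1+/- and -22.1 in pat nrpd1+/-, and a CG difference of -40.7 points in pat nrpd1+/-. All 8 CG differences were losses, and CG losses made up 0.112% of bins in mat nrpd1+/- and 0.146% of those in pat nrpd1+/-.

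The only trace of replicate spread in the lists is the set of variable regions, where the replicates of one genotype differed from each other. The authors had removed these, and 0 of the 480 segments overlapped one in the CHH context. Within 1 kb of a CHH variable region of any genotype lay 31.7% of the pairs (exact 95% interval 27.5% to 36.0%), and within 300 bp lay 10.4%. By group the share within 1 kb was 30.7% for the pairs lower in both, 32.0% for those higher in both and 41.4% for the opposite ones (12 of 29, interval 23.5% to 61.1%). Among regions in no pair that passed the filters of all 3 genotypes it was 30.2% in mat nrpd1+/- and 30.9% in pat nrpd1+/-. The part of replicate spread in the members' values was not tested.

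The maternal share of reads was used by the authors to choose the sequence kept, so that it had to lie within their limits at every member and is no check of the tissue. Its median over the 480 segments was 0.632 for WT, 0.630 for mat nrpd1+/- and 0.636 for pat nrpd1+/-, and it ranged from 0.547 to 0.688. Averaged over the whole lists of sequence kept, it was 0.634, 0.636 and 0.640. The lists give methylation for both parental alleles together, so that the allele on which a member changed is not known.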

How the data were processed

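Bisulfite libraries of endosperm from 3 genotypes, with 2 replicates each, were analysed as 15 lists of regions. Per the study's methods, the authors trimmed reads with Trim Galore and aligned them to TAIR10 with Bismark as single, non-directional reads. Methylation was computed in overlapping 300-bp windows from cytosines shared by the genotypes compared, after the replicates were pooled. Windows past 10 points (CHH) or 30 points (CG) were merged. Regions whose replicates differed, or whose maternal share of reads lay far from that of endosperm, were left out. The deposited values used are differences in percentage points, for which no denominators are given, and the maternal share, deposited as a fraction of reads. How the value of a merged region was derived is not given in the sources used here. In the CHH list of pat nrpd1+/- the named column held lengths in bp, and the one after it was read as the difference.

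Pairs overlapped by at least 1 bp. The members, and the gene lists, were chosen with earlier results of these data known. Named regions were the 8 pairs of each direction with the largest smaller absolute difference, the opposite pairs (the first 10 by that measure with values), the 5 longest shared segments, pairs within 1 kb of a gene of the lists, pairs that overlap a CG region or the direct list, and those nearest the threshold. Other genes are named as chosen after their values were seen. A 100-bp bin passed the filters where it lay in the maternal-share lists of the genotypes compared and outside their variable regions, and read depth there is unknown. Every 20th bin was annotated. Genes were taken from RefSeq TAIR10.1, and every region ended within its chromosome there. Of the imprinted or endosperm genes 20 of 21 were matched by symbol. Shares have exact Clopper-Pearson 95% intervals and medians order-statistic intervals, which cover the counting of regions only. No hypothesis test was run. Python 3.11.15, numpy 2.4.6, pandas 2.3.3, scipy 1.17.1 and BLAST 2.17.0 were used, and the overlap code was tested on simulated regions.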

Additional observations from a re-analysis of the deposited data

Results flagged for a closer look

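The 29 pairs in which mat nrpd1+/- and pat nrpd1+/- moved in opposite directions from WT were singled out because the change relative to the same control had opposite signs in the heterozygotes. In 11 of them mat nrpd1+/- was lower (median -16.4 points) and pat nrpd1+/- higher (median 23.5 points), and in 18 mat nrpd1+/- was higher (median 14.9 points) and pat nrpd1+/- lower (median -15.0 points). The authors' direct comparison listed a region at 18 of the 29. The regions of a pair had the same coordinates in only 3 of the 29, so most of the values compared cover stretches that differ in part. The difference was not tested, because the lists hold 1 pooled value per comparison.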

How the results depend on the processing

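Of 54 alternative values for 15 results, 18 moved past the limits set for them, which for a count was a factor of 1.5. Requiring 15 points in both lists left 188 of the 480 pairs, with 118 lower in both, 59 higher in both and 11 opposite, and raised the share in the direct list to 20.7%. Keeping pairs whose regions were both longer than a single window left 168, with 122, 40 and 6, and moved the medians of the pairs higher in both to 24.2 points in mat nrpd1+/- and 29.5 in pat nrpd1+/-. An overlap of 50% of the longer region left 18 opposite pairs, and leaving out pairs within 1 kb of a variable CHH region, an alternative chosen after seeing the data, left 328 pairs, 224 lower in both, 87 higher in both and 17 opposite. Assigning a segment by its midpoint gave 18.8% over genes, 26.3% over the kilobase upstream and 48.1% in other intergenic sequence, since a midpoint touches less than a segment. A CG region lay within 500 bp of 4.17% of pairs, and a variable CHH region within 300 bp of 10.4%. No paired analysis was possible because the lists hold pooled replicates, and for the same reason no replicate could be left out. A planned share over transposable elements was not run, because the annotation used here was without them, and pseudogenes and repeat masking are given instead. Depth is unknown from the lists, so that absence of a region can also reflect too few reads.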
